A study of Arabidopsis thaliana with 10 samples.

Results

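Leaf messenger RNA of an Arabidopsis thaliana line labelled 35S:NTL6-SRDX pnet2_ab was compared with that of the pnet2_ab mutant from which its label departs by the transgene. The comparison took every gene of the deposited count table in 2 libraries of each genotype, 4 of the 10 libraries of the series. Plants were 4 weeks old, grown on soil and not treated, and the pnet2_ab label is shared by both groups. 35S names a promoter that is active in most plant cells, so the labels describe no leaf cell type in which the fusion is placed. Wild type Col-0, a line labelled 35S:NTL9-SRDX pnet2_ab and a similar line with NTL12 in place of NTL9, with 2 libraries each, were used for reference. The series text speaks of triplicates, and the labels do not say whether the 2 libraries of a genotype came from separate plants or whether a line is 1 transformant. The p-values therefore measure the spread between these libraries, which may be technical.

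NTL proteins are NAC transcription factors that carry a membrane anchor at their carboxyl end and act in the nucleus after release from it. NTL6, also called NAC062, is known in Arabidopsis for roles in cold and pathogen responses, including induction of PR genes. SRDX is a short repression domain, and fusing it to a transcription factor is a common way to turn that factor's targets down. PNET2 proteins sit in the inner nuclear membrane.

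Of 33602 genes, 20334 had enough counts to be tested. At an adjusted p below 0.05, 1780 of them, or 8.75%, were higher in the libraries labelled NTL6-SRDX than in pnet2_ab, and 1902, or 9.35%, were lower. The falls were larger than the rises. The median size of a called log2 fold change was 0.76 among lower genes and 0.45 among higher genes. At least 2-fold changes numbered 205 up and 719 down, and at least 8-fold changes 21 up and 127 down. Levels are in CPM, counts scaled to a common library size. Summed over the called genes, the higher ones gained 65914 CPM and the lower ones fell by 41572 CPM. The median log2 fold change over all tested genes was -0.002. The libraries of the 2 groups did not overlap for 1779 of the 1780 higher and 1895 of the 1902 lower genes. With 2 libraries per group, genes without a change can also lack overlap, and the share without overlap among all tested genes was not counted. Lack of overlap is therefore given below as a description and adds little to a call. Of the 4 libraries, leaving out those labelled NTL6-SRDX moved both counts most, to 1183 higher and 1260 lower without replicate 1 and to 1006 and 1177 without replicate 2. Genes called in the same direction in each of the 4 fits that left out 1 library numbered 672 up, 3.3% of those tested, and 847 down, 4.17%. These are called stable calls below.

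**Figure D1:**
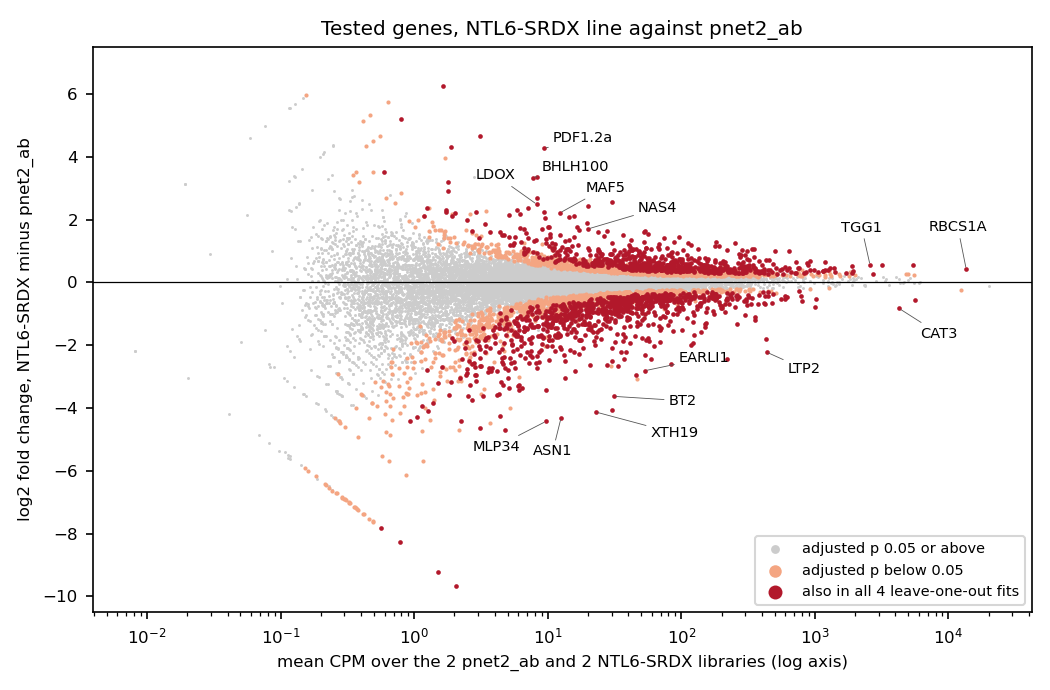
Log2 fold change of each tested gene (libraries labelled NTL6-SRDX minus pnet2_ab) against its mean CPM over the 4 libraries on a log axis; gray points were not called, light points were called and dark points were also called in all 4 fits that left out 1 library. The falls reach further from 0 than the rises, with 272 genes at least 4-fold lower and 50 at least 4-fold higher; fitted values beyond about 6 in size belong to genes near 0 CPM in a group.

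Libraries held 22638465 to 28345856 counts, and a count of 0 allowed up to 3 counts, or 0.0979 to 0.15 CPM. Replicate 2 of pnet2_ab stood apart from replicate 1 for groups of genes that recur below. PR1 lay at 2.81 CPM in replicate 1 and 163 in replicate 2, SAG13 at 16.4 and 86.9, CYP94B3 at 0.359 and 11.8, NRT2.6 at 0.587 and 10.9, and the iron regulator BHLH100 at 0 and 2.89. What separates these libraries is not given in the labels, and its part in the results was not tested. The libraries labelled NTL6-SRDX lay close to each other for the same genes.

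The genes named in the labels did not rise. NTL6 (NAC062) lay at 23.8 and 27.1 CPM in pnet2_ab and at 18.1 and 19.7 in the libraries labelled NTL6-SRDX. The groups did not overlap, and the 35S line was the lower of them (log2 fold change -0.43 ± 0.13 SE, adjusted p = 0.025). The call was lost without either NTL6-SRDX library, at 0.17 and 0.067, and without replicate 2 of pnet2_ab, at 0.18. The counts thus hold no excess of NTL6 reads in the libraries labelled as carrying 35S:NTL6-SRDX, and each direction reported here rests on those labels. Whether reads of the transgene would be counted in this row is not given in the sources used here. Per length, the authors' FPKM values for NTL6 were 12.9 and 14.7 in pnet2_ab and 9.76 and 10.6 in the line, near those of NTL9 (13.9 and 13.3 against 13.8 and 11.3) and below those of NAC078 (29.5 and 27.7 against 26.6 and 27.1). Of 17 tested NTL genes, NTL6 alone passed the test, and none was a stable call. The 3 PNET2 loci did not pass it either. AT1G28760 was at 19 and 16.7 CPM in pnet2_ab and 13.7 and 14 in the line, above the 5.75 and 3.75 of wild type, AT5G67610 at 9.3 and 8.07 against 8.8 and 8.63, and AT3G49840 at 3.82 and 5.46 against 4.12 and 5.33. Against wild type, the line was called higher at 1 of these 3 loci and lower at 2. By FPKM, AT5G67610 was at 8.37 and 9.56 in wild type against 4.72 and 4.63 in the line. AT3G49840 was at 3.53 and 5.07 FPKM against 2.27 and 2.93.

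Genes of iron homeostasis moved in both directions. In plants, basic helix-loop-helix factors of the BHLH38 and BHLH100 type are induced when iron is short and switch on iron acquisition and movement, whereas ferritins, which store iron, are induced when iron is plentiful. Of 18 tested iron genes, 8 were higher and 5 lower, 7 and 4 of them stable, with a median log2 fold change of 0.88.

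Among the regulators, BHLH100 lay at 0 and 2.89 CPM in pnet2_ab and at 13.8 and 14.2 in the libraries labelled NTL6-SRDX. Both libraries of the line were above both of pnet2_ab (3.34 ± 0.70 SE, adjusted p = 0.0019). The size rests on pnet2_ab: the log2 fold change was 2.27 without its replicate 1, and without replicate 2 the remaining pnet2_ab library held no count, so no fold is given for BHLH100 there. BTS, which encodes an E3 ligase that restrains the iron response, rose from 90.3 and 148 CPM to 272 and 258 (1.16 ± 0.13, adjusted p = 1.9e-06). PYE, a helix-loop-helix regulator of the same response, rose by 1.08 ± 0.21 on the log2 scale. BHLH38 was at 0.326 and 2.08 against 4.96 and 6.37 CPM, a call (2.27 ± 0.59, adjusted p = 0.0091) that was lost without NTL6-SRDX replicate 2, at 0.084, or pnet2_ab replicate 1, at 0.091. The log2 fold change of BHLH38 was 1.44 without pnet2_ab replicate 1 and larger than 2.27 without replicate 2 (adjusted p = 0.00025). BHLH39 and BHLH101, of the same subgroup, had log2 fold changes of 1.29 and 0.91 and did not pass the test.

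Among transport genes, OPT3, an iron transporter of the phloem, was at 167 and 206 CPM in pnet2_ab and at 340 and 360 in the line (0.91 ± 0.09, adjusted p = 1.1e-07). ZIF1, a vacuolar transporter of the metal chelator nicotianamine, rose by 1.26 ± 0.16 and FRO3, a mitochondrial ferric reductase, by 0.85 ± 0.12. The nicotianamine synthase genes parted. NAS4 rose from 7.7 and 11 to 29.5 and 31.3 CPM (adjusted p = 5.6e-07), whereas NAS3 fell by 1.27 on the log2 scale (adjusted p = 1.5e-06), to 7.61 and 6.83 CPM. YSL1, a transporter of metals bound to nicotianamine, fell by 1.09 on the log2 scale.

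Of the ferritins, FER1 lay at 28.7 and 25.5 CPM in pnet2_ab and at 11.7 and 9.89 in the line, without overlap (-1.33 ± 0.13, adjusted p = 1.3e-07). FER4 fell from 47.5 and 47.7 to 26.7 and 25.8 CPM (-0.86 ± 0.09), and FER3 was at 49.1 and 47.8 against 42.2 and 41 CPM and did not pass the test. NEET, an iron-sulfur protein gene, was called lower (-0.80 ± 0.25), and the call was lost without NTL6-SRDX replicate 1 or pnet2_ab replicate 1, at adjusted p of 0.33 and 0.24. Outside the list, 4 loci with no gene name in the tables used were higher in the line, as BHLH100 was, and were chosen after their values were seen. AT1G47400 was at 0.196 and 2.81 CPM in pnet2_ab and higher by 3.37 ± 0.53 log2 units in the line, AT1G47395 at 1.04 and 3.63 against 11.9 and 12, AT2G30766 at 2.84 and 9.7 against 35.3 and 32.3, and AT1G13609 at 0.75 and 17.2 against 49.6 and 54.4. In each, pnet2_ab replicate 2 was above replicate 1 and both were below the line. The sizes depend on which pnet2_ab library is kept. Without replicate 1 and without replicate 2, the log2 fold change was 2.41 and 6.22 for AT1G47400 and 1.72 and 3.51 for AT1G47395. Without replicate 2 it was 3.57 for AT2G30766 and 6.11 for AT1G13609, against 2.45 and 2.57 with all libraries, and it was smaller without replicate 1 (adjusted p = 6.6e-05 and 9.7e-07).

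The line stood at an extreme for several of these genes among the 5 genotypes. Over the 18 tested iron genes, 8 were higher and 2 lower than in wild type, 10 higher and 6 lower than in the NTL9-SRDX line, and 11 higher and 5 lower than in the NTL12-SRDX line. The comparisons share the libraries labelled NTL6-SRDX. Over all tested genes the called shares were 10.9% higher and 12.6% lower against wild type, 1.95% and 4.11% against the NTL9-SRDX line, and 8.99% and 8.46% against the NTL12-SRDX line. BHLH100 was at 2.55 and 2.59 CPM in wild type, at 0 in both NTL9-SRDX libraries and at 0.19 and 0 in the NTL12-SRDX line. The NTL6-SRDX line was at least 112-fold above the NTL9-SRDX line, with the latter set to the floor of 3 counts per library. BTS was at 180 and 167 CPM in wild type, 83.8 and 83.1 in the NTL9-SRDX line and 83.4 and 73.1 in the NTL12-SRDX line, below both libraries of the NTL6-SRDX line. FER1 was at 13.1 and 11.4 CPM in wild type, overlapping the NTL6-SRDX line. It was at 57.3 and 64.3 CPM in the NTL9-SRDX line and 35.8 and 34.1 in the NTL12-SRDX line, above the NTL6-SRDX line in both (adjusted p = 8.5e-11 and 3.2e-09).

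**Figure D2:**
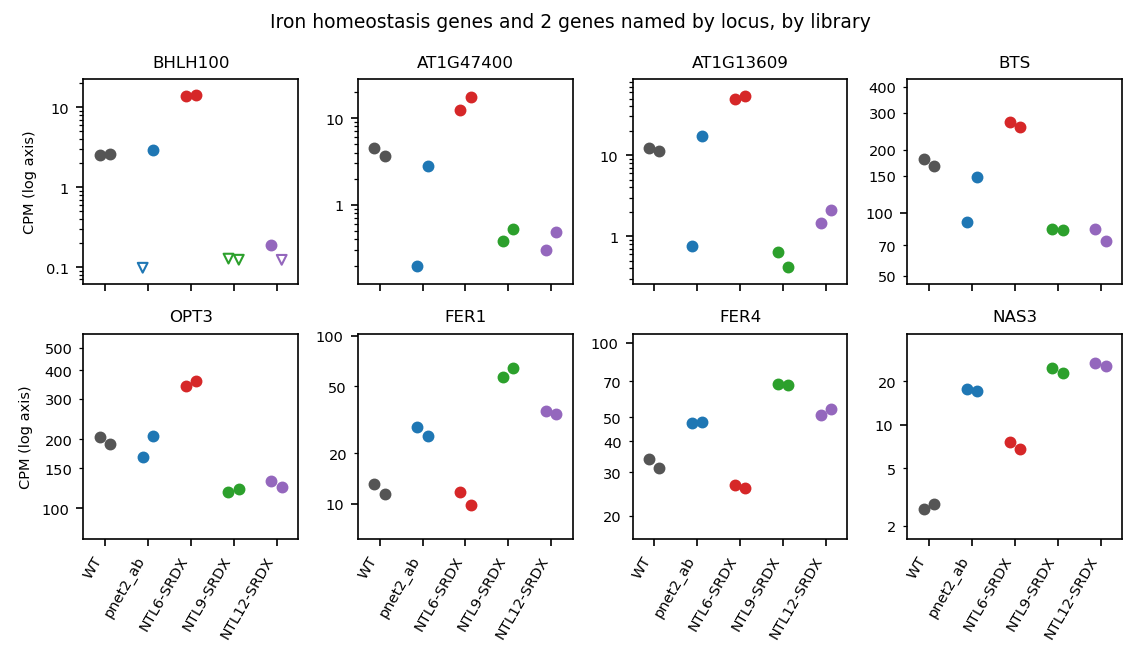
CPM in each of the 10 libraries, on log axes, of 6 iron homeostasis genes and 2 loci without a gene name; points are libraries, and an open triangle marks a library below the floor of 3 counts, drawn at the floor. BHLH100, AT1G47400, AT1G13609, BTS and OPT3 are highest in the libraries labelled NTL6-SRDX, whereas FER1, FER4 and NAS3 are lower there than in pnet2_ab.

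Promoters of 4 iron genes that were called higher and hold CACGTG, a sequence known as the G-box and bound by many helix-loop-helix and bZIP factors, are shown with that of ASN1, a large fall that also holds it. Each is the 250 bases before the RefSeq start in assembly TAIR10.1, written 5′ to 3′ on the strand of the gene, and capitals mark every CACG on either strand, CACGTG included. The windows are chr2:17199455-17199704 on the minus strand for BHLH100, chr3:21085246-21085495 on the minus strand for BHLH38, chr3:6273716-6273965 on the plus strand for BTS, chr4:9250344-9250593 on the minus strand for OPT3 and chr3:17441432-17441681 on the minus strand for ASN1.
BHLH100: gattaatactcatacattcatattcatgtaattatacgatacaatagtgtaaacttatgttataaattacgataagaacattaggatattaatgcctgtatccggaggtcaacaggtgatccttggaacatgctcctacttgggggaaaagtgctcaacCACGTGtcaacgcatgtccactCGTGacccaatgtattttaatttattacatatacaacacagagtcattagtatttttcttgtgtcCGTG
BHLH38: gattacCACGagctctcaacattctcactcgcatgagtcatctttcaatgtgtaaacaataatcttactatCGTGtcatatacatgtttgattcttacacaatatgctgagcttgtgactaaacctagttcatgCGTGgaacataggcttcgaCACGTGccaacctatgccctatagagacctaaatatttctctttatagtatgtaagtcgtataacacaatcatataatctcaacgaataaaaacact
BTS: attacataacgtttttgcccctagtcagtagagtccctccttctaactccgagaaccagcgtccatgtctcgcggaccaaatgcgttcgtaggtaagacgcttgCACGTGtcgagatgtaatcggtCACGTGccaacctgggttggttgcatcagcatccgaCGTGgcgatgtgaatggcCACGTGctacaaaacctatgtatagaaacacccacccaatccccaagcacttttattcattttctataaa
OPT3: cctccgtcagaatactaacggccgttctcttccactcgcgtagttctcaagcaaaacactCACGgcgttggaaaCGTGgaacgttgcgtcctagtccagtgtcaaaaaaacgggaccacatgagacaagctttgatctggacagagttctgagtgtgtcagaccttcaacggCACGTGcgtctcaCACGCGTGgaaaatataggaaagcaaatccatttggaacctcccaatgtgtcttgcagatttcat
ASN1: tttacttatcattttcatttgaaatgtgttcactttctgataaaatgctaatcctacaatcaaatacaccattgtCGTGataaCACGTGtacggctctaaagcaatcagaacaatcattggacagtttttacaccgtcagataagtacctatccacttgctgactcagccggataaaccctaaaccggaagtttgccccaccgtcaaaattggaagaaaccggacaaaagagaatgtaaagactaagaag
BTS held CACGTG 3 times and the other 4 promoters shown held it once. It was present in 6 of the 18 iron promoters, 33.3%, against 7.2% of 20217 promoters of tested genes, 7.4% of those of higher genes and 6.83% of those of lower genes. Among other lists described below, 5 of 25 flavonoid promoters (20%) and 3 of 30 aliphatic glucosinolate promoters (10%) held it. So did 2 of 21 for ethylene and jasmonate defence, 2 of 27 for carbon starvation and 0 of 5 for BTB and TAZ scaffolds. The promoters of PDF1.2a, a large rise, and MLP34, a large fall, are not shown and held no CACGTG. The core CACG, found in sites of NAC factors and inside CACGTG, occurred in 45.9% of all, 46.7% of higher and 49.2% of lower promoters. The mitochondrial dysfunction motif, a palindrome reported as a site of membrane-bound NAC factors, occurred in 0.544%, 0.508% and 0.582%. The W-box TTGACT occurred in 18.6%, 16.3% and 23.9%, the W-box TTGACC in 12%, 10.8% and 14.6%, the evening element AAAATATCT in 2.53%, 2.43% and 4.13%, and ACTCAT, a bZIP site, in 12%, 13.1% and 12.6%. Both strands were searched. A match describes letters in this window and is not a binding site.

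Genes that plants induce in the dark or under carbon shortage were lower in the line. Of 27 tested, 16 were lower and none higher, 13 of them stable, and the median log2 fold change was -0.81. ASN1, an asparagine synthetase gene on chromosome 3 (17437884 to 17441243, minus strand), was at 29.6 and 18.3 CPM in pnet2_ab and at 1.15 and 1.27 in the line, 19.8-fold lower (-4.31 ± 0.28, adjusted p = 3.4e-10). SEN1, a dark-induced gene, fell from 45.3 and 25.7 to 5.27 and 6.1 CPM. DIN2, a beta-glucosidase gene, had 3.59 and 2.4 CPM in pnet2_ab and no count in the line, at least 25.6-fold lower. The groups did not overlap for any of these, as for nearly all calls. TPS8, TPS9, TPS10 and TPS11, trehalose-phosphate synthase genes of the class that responds to sugar supply, fell by 0.94, 0.93, 1.31 and 1.52 on the log2 scale. STP1, a monosaccharide importer, fell from 214 and 219 to 83.5 and 93.2 CPM. PRODH1, for proline breakdown, and ETFQO, for breakdown of branched-chain amino acids, had log2 fold changes of -0.13 and 0.10 and did not pass the test. DYL1, a dormancy-associated gene outside the list, was at 156 and 133 against 23 and 24.7 CPM and lay below wild type (68.4 and 59.7) as well.

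Scaffold proteins with BTB and TAZ domains, of which BT1 and BT2 are known to limit nitrate uptake, were lower at 4 of 5 loci, all stable. BT2 fell from 60.9 and 55.1 to 5.83 and 3.53 CPM (-3.63 ± 0.17) and BT5 from 15 and 13.5 to 3.41 and 2.65 (-2.23 ± 0.20). BT1 and BT4 fell by 0.75 and 0.74 on the log2 scale, and BT3 was at 3.49 and 4.2 against 3.69 and 2.34 CPM. Nitrate genes were mostly lower too. Of 26, 16 were lower and 2 higher, 11 and 1 of them stable, with a median of -0.49. NIA1, a nitrate reductase gene, was at 118 and 110 CPM in pnet2_ab and 44.1 and 44.4 in the line (-1.36 ± 0.09, adjusted p = 5.9e-10), whereas NIR1, for the next enzyme, was at 185 and 185 against 186 and 182. LBD37, LBD38 and LBD39, repressors of nitrate-responsive genes, fell by 0.53, 0.93 and 0.66 on the log2 scale. GLN1;1, a cytosolic glutamine synthetase gene, fell from 226 and 244 to 110 and 122 CPM. GLU1, a plastid glutamate synthase gene, rose from 781 and 913 to 1127 and 1104 CPM (0.40 ± 0.07), and GLN2, the plastid glutamine synthetase gene, rose by 0.35, a call lost without NTL6-SRDX replicate 2 at an adjusted p of 0.053.

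**Figure D3:**
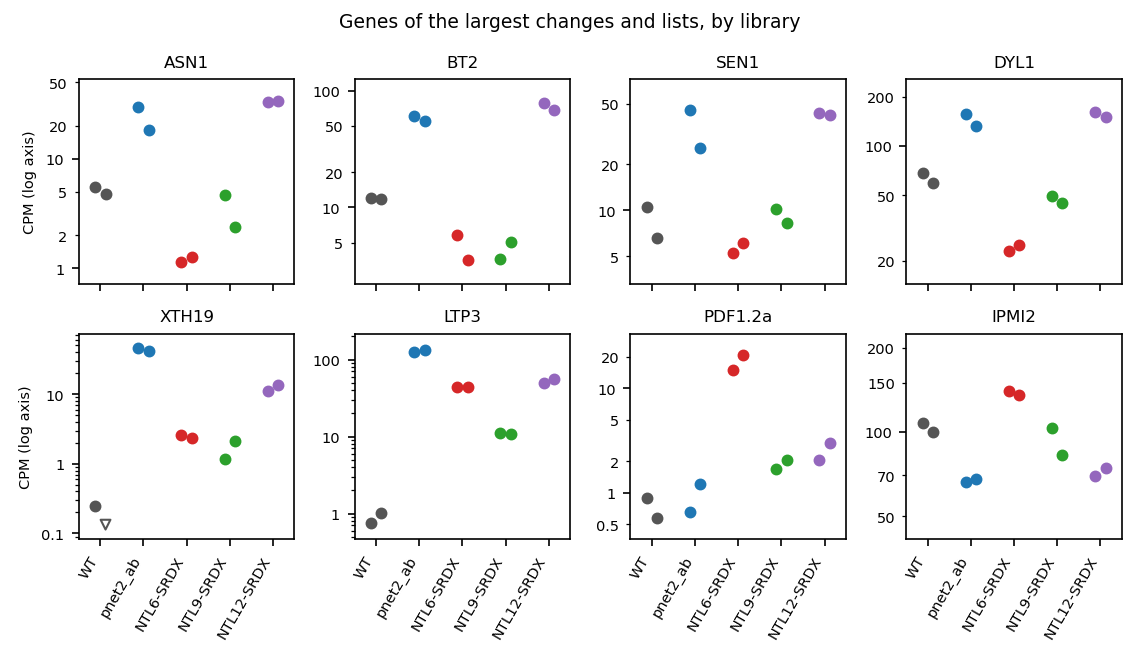
CPM in each of the 10 libraries, on log axes, of genes with large changes; points are libraries and an open triangle marks a library below the floor of 3 counts. ASN1, BT2, SEN1, DYL1, XTH19 and LTP3 are lower in the libraries labelled NTL6-SRDX than in pnet2_ab, PDF1.2a and IPMI2 are higher, and LTP3 and XTH19 stay above wild type.

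Most aliphatic glucosinolate genes and 10 of 21 sulfur genes rose. Glucosinolates are sulfur-rich defence compounds of the cabbage family, and those made from methionine are called aliphatic. Of the sulfur genes, 2 were lower and 9 did not pass the test. The stable calls were 9 higher and 1 lower, and the median over the list was 0.42. APR1, which encodes the sulfate-reducing enzyme of assimilation, was at 52.9 and 59.5 CPM in pnet2_ab and 103 and 105 in the line (0.88 ± 0.09, adjusted p = 2.8e-07). APR3 rose by 0.90 and APS3, an ATP sulfurylase gene, by 1.27 ± 0.16. APK1 and APK2, whose kinases supply activated sulfate for glucosinolate synthesis, rose by 0.52 and 0.77. APS4, another ATP sulfurylase gene, moved the other way, from 56.5 and 56.9 to 36.5 and 38.9 CPM. SDI1, known to restrain aliphatic glucosinolate synthesis, was at 1.27 and 0.978 against 0.436 and 0.0767 CPM, near the floor, and its call (-2.12 ± 0.74, adjusted p = 0.049) was not stable. In aliphatic synthesis, 27 of 30 genes were higher and none lower, 23 of them stable, with a median of 0.75. GSTU20, a glutathione transferase gene of this pathway, was at 228 and 230 against 463 and 484 CPM (1.05 ± 0.08, adjusted p = 2.7e-09), and MAM3, for chain elongation of long-chain forms, at 15.7 and 15 against 34.1 and 30.8. The regulators MYB28 and MYB29 rose by less, 0.51 and 0.70.

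Indole glucosinolate genes split, with 4 of 17 higher and 3 lower. MYB51, their regulator, fell by 0.93 ± 0.17 and IGMT1, a methyltransferase gene, by 1.39 ± 0.20, whereas CYP79B2, an early enzyme, had a log2 fold change of 0.14 and did not pass the test. Genes of glucosinolate breakdown were 5 higher and 5 lower of 19, the lower count being 3 with DESeq2. ESP, which steers breakdown to nitriles, rose from 38.7 and 45.9 to 86.3 and 97.5 CPM. The myrosinase genes TGG1 and TGG2, whose enzymes start breakdown, rose from 1974 and 2209 to 3131 and 3025 and from 676 and 723 to 1151 and 1109 CPM. TGG1 is also a marker of guard cells, of which 6 of 10 were higher, 2 of them stable, and 3 without NTL6-SRDX replicate 1. Their summed level was 2092 to 2333 CPM in pnet2_ab and 3171 to 3287 in the line, most of it TGG1, and their part in the TGG1 result was not tested. In whole leaves, a change in the number of cells of a type and a change in RNA per cell cannot be told apart. PYK10, a beta-glucosidase of root and seedling endoplasmic reticulum bodies, fell from 134 and 167 to 58 and 47.7 CPM. NIT2, a nitrilase gene, was at 24.9 and 90.2 CPM in pnet2_ab and at 3.77 and 3.03 in the line, a log2 fold change of -4.08 that was -2.87 without pnet2_ab replicate 2 and -4.73 without replicate 1. In the list for camalexin, an indole defence compound, 2 of 8 genes were higher and 4 lower, 1 and 3 of them stable. CYP71A12 fell from 5.45 and 5.05 to 0.912 and 0.268 CPM, by 4.26 and 2.52 on the log2 scale without NTL6-SRDX replicate 1 and replicate 2. CYP71A13, for the same step of synthesis, was at 3.98 and 10.4 against 13 and 15.8 CPM, called higher (adjusted p = 0.033), and the call was lost without pnet2_ab replicate 1, at 0.36, or either NTL6-SRDX library, at 0.061 and 0.19.

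Flavonoid genes rose at 13 of 25 loci and fell at 2, 7 and 1 of them stable, with a median of 0.55. MYBL2, a repressor of anthocyanin synthesis, was at 177 and 160 CPM in pnet2_ab and 83.6 and 80.7 in the line (-1.03 ± 0.09, adjusted p = 2e-08). UGT78D1, which adds rhamnose to flavonols, rose by 1.11 ± 0.11 and CHIL, a chalcone isomerase-like gene, by 1.14 ± 0.18. CHS, for the entry enzyme, rose by 0.55 ± 0.10. The activators PAP1 and TT8 had log2 fold changes of 0.40 and 0.93 and did not pass the test, and EGL3 was called higher at 0.86 without being stable.

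**Figure D4:**
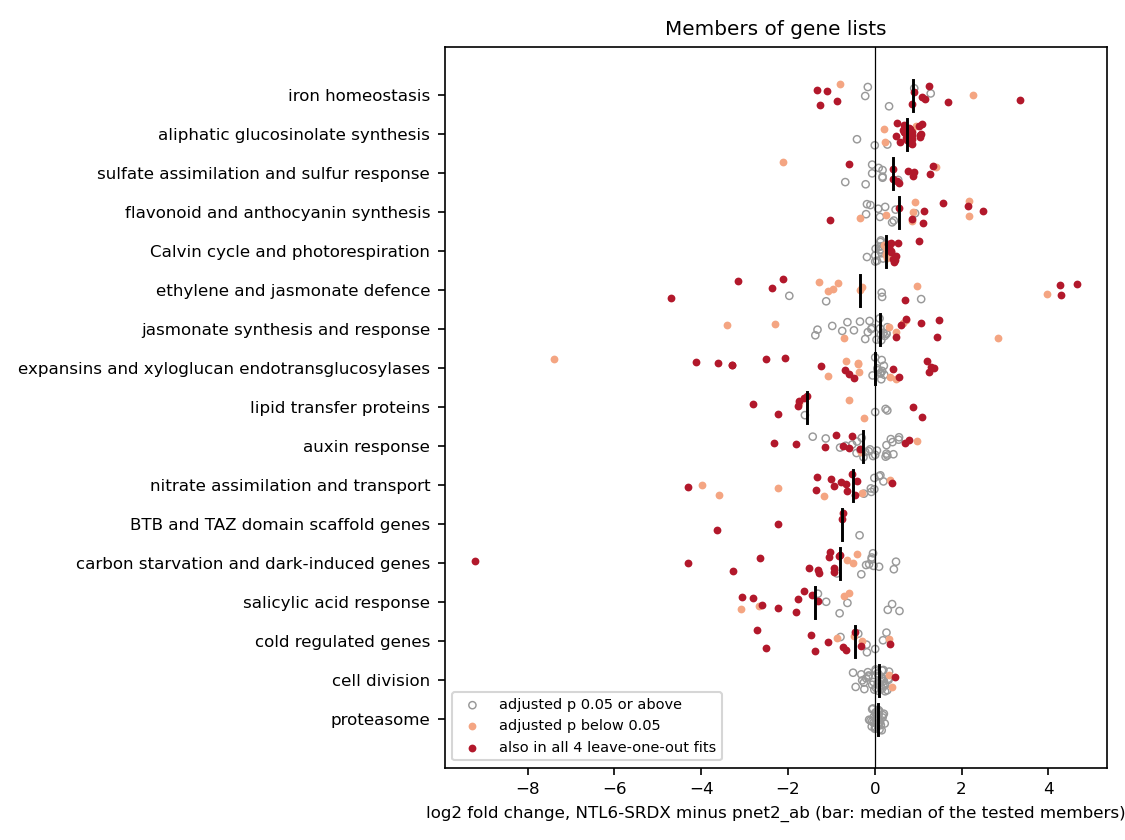
Log2 fold change (libraries labelled NTL6-SRDX minus pnet2_ab) of the tested members of 17 gene lists; open points were not called, light points were called, dark points were also called in all 4 fits that left out 1 library, and a bar marks each list's median. Most aliphatic glucosinolate genes lie to the right of 0 and most carbon starvation genes to the left, iron genes lie on both sides, and proteasome genes stay near 0.

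Defence genes tied to ethylene and jasmonate divided within the defensin family. PDF1.2a, an antifungal defensin gene on chromosome 5 (17907069 to 17907598, minus strand), was at 0.652 and 1.22 CPM in pnet2_ab and 14.9 and 20.8 in the line, 19.3-fold higher. PDF1.2c rose from 0.294 and 0.163 to 5.04 and 7.02 CPM and PDF1.3 from 0.261 and 0.0815 to 2.82 and 4.37. PDF1.4 went the other way, from 11 and 7.38 to 0.198 and 0.499 CPM (-4.69 ± 0.45, adjusted p = 1.7e-07). PDF1.2a, PDF1.2b, PDF1.2c and PDF1.3 are near-identical copies, and how reads shared among them were counted is not given in the sources used here, so their separate levels are uncertain. ERF104, ERF105 and ERF6, ethylene response factors, fell by 2.11, 3.16 and 2.36. Without NTL6-SRDX replicate 2 the log2 fold change was -5.50 for PDF1.4 and -3.95 for ERF105, and without pnet2_ab replicate 1 it was 5.38 for PDF1.3. Over the list, 6 of 21 were higher and 10 lower, 4 of each stable. The lower count was 6 without NTL6-SRDX replicate 1 or without pnet2_ab replicate 2.

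Jasmonate synthesis and response genes were 11 higher and 3 lower of 36, with 6 higher and none lower stable, and 7 higher without NTL6-SRDX replicate 1. CLH1, a jasmonate-induced chlorophyllase gene, was at 47.1 and 55.8 CPM in pnet2_ab and 137 and 142 in the line (1.44 ± 0.10, adjusted p = 8.9e-10). AOS and LOX2, for early steps of synthesis, rose by 0.71 and 0.61, and VSP2, a vegetative storage protein gene, by 1.48 ± 0.27, or 2.13 for VSP2 without pnet2_ab replicate 2. Of the JAZ repressors, JAZ1 was called lower at -0.72, a call lost without pnet2_ab replicate 2 at an adjusted p of 0.082, and 9 others did not pass the test, between -1.37 for JAZ4 and 0.27 for JAZ9.

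Salicylic acid response genes were lower at 13 of 20 loci and higher at none, 9 of them stable, with a median of -1.37. Without pnet2_ab replicate 2, 4 members were called higher, PR1 among them. PR1 was at 2.81 and 163 CPM in pnet2_ab and at 10.3 and 9.09 in the line. The line thus lay between the pnet2_ab libraries, and the log2 fold change of -3.08 turned to 1.79 (adjusted p = 0.023) without replicate 2. The call of PR1 was also lost without either NTL6-SRDX library. PR2 was at 14.6 and 79 against 21.3 and 21.5 CPM, and PR5 at 15.2 and 38.7 against 35.5 and 30.4. Neither passed the test. For both genes the line again lay between the pnet2_ab libraries, above replicate 1 and below replicate 2, so the direction depends on which is kept. These PR genes are the reported targets of NTL6. Members that did not depend on that library included CRK13, a receptor kinase gene, which fell from 25 and 22.7 to 3.01 and 2.72 CPM (-3.05 ± 0.20, adjusted p = 6.2e-10), GRXS13, a glutaredoxin gene (-1.81 ± 0.28), and MLO12 (-2.59 ± 0.44). Of the genes of salicylic acid synthesis and signalling, 6 of 23 were lower and 1 higher, and 3 were lower without NTL6-SRDX replicate 2. ICS1, for the main synthesis enzyme, was at 13.3 and 14.4 against 11.1 and 11.8 CPM and did not pass the test.

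Pattern-triggered immunity genes were lower at 16 of 36 loci and higher at 1, 9 and 1 of them stable, with a median of -0.52 and 10 lower without pnet2_ab replicate 2. FRK1, a receptor kinase gene used as an immune marker, fell from 8.38 and 9.9 to 1.43 and 1.61 CPM. BIK1, a cytoplasmic kinase gene downstream of immune receptors, fell by 1.07, whereas the receptor gene FLS2 and its partner BAK1 had log2 fold changes of -0.15 and -0.02 and did not pass the test. RBOHD, an oxidase gene of the immune oxidative burst, was the member that rose, by 0.49. Cysteine-rich receptor kinases were 11 lower and 1 higher of 30, and NLR receptors 6 lower and none higher of 20. Without pnet2_ab replicate 2 these lower counts were 4 and 2. The receptor kinase count was 7 without NTL6-SRDX replicate 2, and the NLR count 3 without either NTL6-SRDX library.

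The gene families given next, as named in the authors' table, were singled out after their values were seen. Of 55 WRKY genes, 26 were lower and none higher, 16 of them stable, with a median of -0.71. WRKY48, a repressor of basal defence, was at 21.1 and 22.7 CPM in pnet2_ab and 4.96 and 3.87 in the line (-2.31 ± 0.23, adjusted p = 2.2e-07), and WRKY28 fell by 2.40 and WRKY47 by 1.66. WRKY70 was at 35 and 88.9 against 42.9 and 50.7 CPM and did not pass the test. Of 100 AP2 genes, the family of ethylene response factors and CBFs, 27 were lower and 11 higher, 19 and 6 of them stable. ERF055 fell from 13.3 and 9.9 to 1.07 and 1.19 CPM, and CRF2, a cytokinin response factor gene, rose from 8.42 and 9.78 to 21.1 and 17.3. Papain-type proteases (Peptidase_C1) were 9 lower and 1 higher of 26, with 7 of the lower stable. DEAD-box helicases were 15 higher and none lower of 61, with 5 stable.

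Cell wall loosening genes split by member. Xyloglucan endotransglucosylases (XTH) cut and rejoin wall polymers, and expansins loosen walls in growing tissue. Of 35 genes, 8 were higher and 16 lower, 6 and 10 of them stable, with a median of 0.01 and 10 lower without NTL6-SRDX replicate 1. XTH15 fell from 9.85 and 11.9 to 0.793 and 1.42 CPM and XTH23 from 12.4 and 9.7 to 1.15 and 1.11. XTH22, a touch-induced gene, fell from 22.9 and 36.1 to 6.23 and 7.71 CPM, and XTH20 was at least 7.25-fold lower, a call that was not stable. On the other side, XTH31 was at 32.4 and 28.9 CPM in pnet2_ab and 76.5 and 73.8 in the line (1.29 ± 0.09, adjusted p = 1e-09), XTH7 at 74.3 and 69.6 against 165 and 165, and EXPA5, an expansin gene of growing leaves, at 24.4 and 22.2 against 59.1 and 61. Groups did not overlap for any of these genes, as for nearly all calls. Auxin response genes were 9 lower and 3 higher of 37, 8 and 2 of them stable. GH3.5, which conjugates auxin, fell from 25.8 and 29.4 to 7.81 and 7.79 CPM, and the repressor genes IAA29 and IAA2 fell by 2.32 and 1.14, whereas SAUR16 and SAUR50 rose by 0.80 and 0.70. Cytokinin genes were 6 higher and 1 lower of 20, 3 of the higher stable, and 3 higher without NTL6-SRDX replicate 1 or pnet2_ab replicate 1. ARR6, a cytokinin-induced response regulator, rose from 8.19 and 7.99 to 18.6 and 14.6 CPM.

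Lipid transfer proteins carry lipids to the cell surface. Of 15, 9 were lower and 2 higher, 6 and 2 of them stable, with a median of -1.56. LTP2 was at 745 and 685 CPM in pnet2_ab and 144 and 164 in the line (-2.22 ± 0.08, adjusted p = 5.1e-14), still above the 18.9 and 21 CPM of wild type. EARLI1 fell from 106 and 81.8 to 13.5 and 13.3 CPM. LTP5 rose by 0.88 ± 0.08, and LTP7 was at 46.5 and 52.4 against 111 and 101 CPM. LTP3 and LTP4 are close copies and their counts carry that uncertainty. Cuticle and wax genes were 10 higher and 3 lower of 36, 6 and 1 stable, and 6 higher without NTL6-SRDX replicate 1. Epidermis markers were 5 higher and none lower of 8, 3 of them stable, at 2350 to 2401 CPM summed in pnet2_ab and 2614 to 2615 in the line. These markers include LTP1, itself a lipid transfer protein gene, and CER6, a wax gene. The part of the epidermis markers in the cuticle and lipid transfer results was not tested.

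Cold-regulated genes were lower at 12 of 21 loci and higher at 2, 9 and 1 of them stable, with a median of -0.45. ZAT10, a zinc finger gene, was at 19.1 and 26.8 CPM in pnet2_ab and 4.12 and 3.95 in the line (-2.50 ± 0.19, adjusted p = 5.1e-09), ZAT12 fell by 2.72 and CBF1, a cold-response activator, by 1.46. COR15A, a CBF target, was at 264 and 363 against 352 and 362 CPM and did not pass the test, and COR47 fell by 0.66. Oxidative stress genes were 11 lower and 2 higher of 25, and 7 lower without pnet2_ab replicate 2. CAT3, a catalase gene and the largest fall in CPM among stable calls, went from 5268 and 5668 to 3131 and 3024 CPM, whereas CAT2 rose by 0.27, a call that was not stable. Senescence genes were 16 lower and 1 higher of 29, 10 of the lower stable, and NYC1, for chlorophyll b breakdown, fell from 211 and 190 to 110 and 100 CPM, below both wild-type libraries at 194 and 181. Abscisic acid response genes were 12 lower and 1 higher of 29, and 7 lower without pnet2_ab replicate 2. Among flowering regulators, TEM1 and TEM2, repressors of the floral signal FT, fell by 1.78 and 2.02 on the log2 scale, TEM2 from 93.5 and 107 to 25.9 and 23.6 CPM. MAF5, a repressor of the FLC family, rose from 1.37 and 7.58 to 20.3 and 20.3 CPM, against 0.5 and 0.535 in wild type. The log2 fold change of MAF5 was 1.42 without pnet2_ab replicate 1 and 3.89 without replicate 2. Light signalling genes were 9 lower and 1 higher of 38, 6 of the lower stable, with PHYA, a photoreceptor gene, at 118 and 119 against 70.4 and 68.4 CPM.

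Calvin cycle and photorespiration genes rose at 16 of 30 loci and fell at none, 11 of them stable, with a median of 0.26. RBCS1B, a Rubisco small subunit gene, was at 430 and 414 CPM in pnet2_ab and 733 and 961 in the line (1.01 ± 0.11, adjusted p = 1.6e-06). FBA1, a plastid aldolase gene, rose from 490 and 515 to 698 and 705 CPM. Both stayed below wild type, where RBCS1B was at 1185 and 1019 and FBA1 at 1364 and 1241. CA1, a carbonic anhydrase gene, and THI1, for thiamine synthesis, were among the largest gains in CPM, from 1496 and 1640 to 2184 and 2300 and from 2533 and 2631 to 3687 and 3889. Photosystem and light-harvesting genes were 12 higher and 2 lower of 50, 6 and 1 stable, with 6 higher without NTL6-SRDX replicate 2 and 7 without pnet2_ab replicate 1. LHCB1.4, an antenna gene, fell from 6822 and 6667 to 4294 and 4823 CPM. The LHCB1 genes are close copies, and their separate levels are uncertain.

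The shares called among all tested genes were 8.75% higher and 9.35% lower. None of 30 proteasome genes was called, with a median of 0.06. Heat shock genes had 1 of 19 higher, DNA damage genes 1 higher and 1 lower of 17, the unfolded protein response 1 higher and 2 lower of 23, and genes of the nuclear lamina and envelope 1 higher and 1 lower of 20. Cell division genes were 3 higher and none lower of 41, histones 3 and 1 of 22, and lignin genes 2 and 2 of 17. Autophagy genes were 9 lower and none higher of 31, and 5 lower without NTL6-SRDX replicate 1. Phosphate starvation genes were 4 lower and 1 higher of 15. Starch and sucrose genes were 6 higher and 7 lower of 40, sugar transporters 4 and 6 of 24, brassinosteroid genes none and 5 of 19, gibberellin genes 3 and 7 of 20, and clock genes 2 and 5 of 26. Many of these counts fell when a library was left out. Without pnet2_ab replicate 2, starch and sucrose genes had 2 lower and brassinosteroid genes 2. Without NTL6-SRDX replicate 2, gibberellin and starch genes had 3 lower each and brassinosteroid and clock genes 2. Without NTL6-SRDX replicate 1, starch genes had 3 higher and 3 lower, sugar transporters 2 higher and clock genes 2 lower. Without pnet2_ab replicate 1, clock genes had 2 lower and sugar transporters 1 higher. Without pnet2_ab replicate 2, gibberellin genes had 4 lower and clock genes 3. Higher cell division genes then numbered 1 to 2, higher histones 1 to 4, higher lignin genes 0 to 1 and higher gibberellin genes 1 to 3 over the 4 fits.

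Markers of other organs and of cell types were summed. Seed markers reached at most 0.328 CPM in a library. Flower markers summed to 15.9 to 23.4 CPM in pnet2_ab and 13.4 to 14.4 in the line, with AP3 and SEP3 lower, neither stable. Root markers were 3 lower and none higher of 7, 2 of them stable, with a median of -1.51. They summed to 184 to 213 CPM in pnet2_ab and 93 to 105 in the line, nearly all of it PYK10, SCR and SHR. PYK10 and PHT1;1 were the stable falls, NRT2.1 the other fall, and SCR and SHR did not pass the test. COBL9 and RHD6, which mark root hairs, were at or near 0. PHT1;1, a root phosphate transporter gene, was at 2.09 and 1.02 CPM in pnet2_ab and 0 in the line, at least 13.3-fold lower. Of 12 meristem and young leaf markers, 1 was higher, 2 were lower and 9 did not pass the test. TCP4, a regulator of leaf growth, was called higher at 0.27 without being stable. KNAT1 fell from 16.7 and 12 to 4.12 and 4.3 CPM and STM from 9.56 and 8.07 to 4.32 and 3.57, and the growth regulators GRF5 and AN3 did not pass the test. Trichome markers had no call in 11, phloem markers had 1 higher in 9, a stable call, and xylem markers had 3 higher in 7, none of them stable. Whether these markers account for part of any list was not tested.

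For 22 called genes, the libraries of 1 group were at or under the floor of 3 counts and the other group averaged at least 1 CPM. CYP89A7, a cytochrome P450 gene, was at 5.45 and 2.73 CPM in pnet2_ab and had no count in the line, at least 35-fold lower, and AT5G37940 was at least 9.65-fold lower. In the other direction, AT2G14230 was at 0 and 0.0815 CPM against 2.7 and 3.76, and CSLA01, a glucomannan synthase gene, at 0 and 0.0815 against 1.47 and 1.65. Runs of at least 4 neighbouring tested genes called in 1 direction numbered 5 and held 22 genes. How many such runs the shares called would give without any clustering was not tested. The run from AT1G11820 to SRS on chromosome 1 (3991027 to 4006739) held 5 higher genes with log2 fold changes of 0.31 to 1.44, of which GDCST and SRS were not stable. A run on chromosome 5 (25650641 to 25666244) held the peroxidase genes PER69, PER70 and PER71 and AT5G64130, all lower, of which PER69 and AT5G64130 were not stable.

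Against the other genotypes, some members lay outside every other library. ASN1 was at 5.5 and 4.77 CPM in wild type, 4.67 and 2.38 in the NTL9-SRDX line and 33 and 33.3 in the NTL12-SRDX line, all above the 1.15 and 1.27 of the line labelled NTL6-SRDX (log2 fold changes -2.08, -1.54 and -4.77, adjusted p = 2.6e-05, 0.0038 and 6.2e-11). The call against the NTL9-SRDX line was not kept in every fit that left out 1 library. TZF5, a zinc finger gene, was at 46.9 and 48.8 CPM in pnet2_ab, 8.45 and 6.94 in the line and 13.1 to 32.3 in the other 6 libraries. ORG1 was at 364 and 349 CPM in the line, 88.2 and 214 in pnet2_ab, 165 and 169 in wild type and 54.8 to 80.9 in the other SRDX lines. Its log2 fold change over pnet2_ab was 1.25, and 2.02 without pnet2_ab replicate 2. These comparisons share the libraries labelled NTL6-SRDX, and the genes were chosen after their values were seen. The counts against the NTL9-SRDX line were the smallest of the 4 comparisons, at 397 higher and 835 lower, and fell to 157 and 325 without NTL9-SRDX replicate 2, 187 and 365 without NTL6-SRDX replicate 1 and 212 and 441 without NTL6-SRDX replicate 2.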

How the data were processed

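Whole leaves (about 50 mg per sample) gave strand-specific mRNA libraries, per the labels' protocols. The authors deposited raw read counts per gene and library and, beside them, FPKM values. Per the submitters' processing notes, the tools included HTSeq 0.6.1p1 and HISAT2 2.0.4, and the build was TAIR10. Strand setting and treatment of reads shared by copies are not given in the sources used here. Libraries were grouped by title; the second NTL12-SRDX library carries another genotype label and entered only as reference.

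The deposited counts were fitted with edgeR 4.0.16 under R 4.3.3: filterByExpr by group, TMM scaling, 1 coefficient per genotype over all 10 libraries, quasi-likelihood F-tests and Benjamini-Hochberg adjustment over the 20334 genes tested in each comparison, with calls at 0.05. Standard errors are the log2 fold change divided by the square root of F. CPM use TMM-scaled library sizes, with factors of 0.884 to 1.082. The biological coefficient of variation was 0.108. FPKM values were used as deposited, for levels between genes and, at NTL and PNET2 loci, between genotypes. No test used them. Replicates were never identical, and each pair differed by more than counting error (chi-square over its degrees of freedom 6.11 to 9.75). Floors of 3 counts, at 95% confidence, cover counting error only, whereas the standard errors come from the fit and include the spread between libraries.

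Of 1516 entries in 62 gene lists, 1443 were matched to a locus. The members and lists were chosen with earlier results of these data known. Genes were named by rule. The rule took PNET2 and NTL members and the 15 largest rises and falls with at least 5 CPM and stable calls. It also took the 5 largest changes in CPM, the 4 best-supported members of each list and any called against its majority. Called genes at or under the floor in 1 group and runs of neighbours completed it. Other list members and genes said to be chosen later were added. Promoters came from the RefSeq tables of TAIR10.1. The promoter of a further called iron gene is not reported here. Alternatives were DESeq2 1.42.0, its size factors, no filter, the 4 libraries alone, a replicate block, a threshold of 0.01 and leaving out each library. The test was tried on simulated counts.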

Additional observations from a re-analysis of the deposited data

How the results depend on the processing

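Against pnet2_ab, the counts of higher and lower genes were 1699 and 1763 with DESeq2, 1761 and 1903 with its size factors, 2038 and 2135 without the filter, 1651 and 1883 from the 4 libraries alone, and 1042 and 1166 at a threshold of 0.01. Leaving out 1 library gave 1006 to 1368 higher and 1177 to 1499 lower. At least 2-fold changes, 205 higher and 719 lower, then numbered 166 to 248 and 530 to 609; over the other settings they were 148 to 231 higher and 491 to 778 lower.

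Leaving out 1 library gave 1408 to 1519 higher genes against wild type (1266 at 0.01) and 1777 to 2128 lower; 157 to 317 higher and 325 to 889 lower against the NTL9-SRDX line (187 and 448 at 0.01, and 636 higher without the filter); and 1094 to 1192 higher and 1081 to 1124 lower against the NTL12-SRDX line (1091 and 1068 at 0.01). The cause was not tested beyond the fewer samples or stricter threshold of each setting.

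Same-numbered libraries did not deviate together, with a correlation of 0.0102 between pnet2_ab and NTL6-SRDX, so the numbers are not taken to pair them. With the replicate number as a block, 1686 genes were higher and 1807 lower. Of 330 named genes, 8 lost their call with the block, 16 with DESeq2 and 51 to 70 when 1 library was left out. Many named genes were chosen for stable calls or small adjusted p, and some were not called, so these losses do not describe all calls. Leaving out 1 library, PR1 ranged from -4.07 to 1.79 on the log2 scale, TPS04 from -8.40 to 2.28 and CYP94B3 from -4.37 to 0.65. Each was above 0 only without pnet2_ab replicate 2. With 2 libraries per genotype and floors near 0.1 CPM, changes of genes below about 1 CPM rest on few counts.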
